A study of Mus musculus with 6 samples.

Results

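The presynaptic vesicle release genes comprise 37 genes listed by symbol, from the vesicle proteins synaptophysin and synaptobrevin to the active zone scaffolds Bassoon and Piccolo. All 37 were found by symbol among 55359 annotated genes, 1 identifier each, and all 37 had a mean of at least 1 TPM (a share of the library scaled by transcript length). They were read in whole brain of mouse embryos at E18.5. The wild-type (WT) group and the group with the PME-1 S156A knock-in allele had 3 libraries each, and every library pools 3 brains. The zygosity of the allele is not given in the labels, and no other allele or treatment is named for either group. PME-1 is the enzyme that demethylates the phosphatase PP2A, and S156 is the serine of its active site. The labels do not say whether pools came from separate litters, so p-values measure the spread between these pools.

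Neurotransmitter leaves a nerve terminal when a vesicle fuses with the plasma membrane. The vesicle SNARE synaptobrevin (VAMP) zips together with the plasma membrane SNAREs SNAP-25 and syntaxin-1, complexin clamps the complex, and synaptotagmin releases it when calcium enters. Active zone proteins dock and prime vesicles at the release site, NSF and the SNAPs take spent SNARE complexes apart, and dynamin and AP180 retrieve the membrane. In the late embryonic brain most of these genes are still on their way up, as axons arrive and synapses begin to form, and several families switch from an early to a late paralog.

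The libraries held an estimated 3.15 to 4.14 aligned gigabases. Of 18893 genes tested by limma, 16 were called higher and 14 lower in S156A at an adjusted p under 0.05, a split of 18 and 63 when libraries were scaled by a trimmed mean of M values. Over all tested genes the log2 differences had a median of 0.09. WT replicate 3 and S156A replicate 1 stood apart by skeletal muscle RNA. The summed TPM of 12 muscle genes was 8678 and 8869 in these libraries, 1099.95 in WT replicate 2 and between 19.1 and 75.7 in the others. Values without both, or without another single library, are given for members whose direction turned or whose size moved by over 1.5 times. The exchange of 1 amino acid cannot be checked from gene totals.

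Most presynaptic genes were lower in S156A brains than in WT, but none passed the test over all genes. Of the 37 members 30 had a negative log2 difference, against 38.3% of all genes tested, and the median was -0.54. By limma 0 members were called at an adjusted p under 0.05 (background for calls in the lower direction 0.0741%), and 24 had an unadjusted p under 0.05, all 24 lower in S156A (background 5.5% lower and 8.41% higher). For the same number, 24, every S156A library lay below every WT library (background 7.05%), and for 0 members did every S156A library lie above (background 13.7%). The smallest adjusted p were 0.052 for Dnm1 and 0.062 for Sncb, and 6 members were under 0.10 (background 0.667%). Dnm1 alone was called with FPKM in place of TPM (background 0.203%), with a mean of at least 5 TPM (0.139%), without mitochondrial, haemoglobin and muscle genes (0.101%) and with coverage (0.127%), and Dnm1 and Sncb with quantile normalization (0.191%). By library weights, 7 members were called (Dnm1, Nsf, Snap91, Sncb, Syn2, Syt2 and Vamp1, background 0.963%), and by trimmed mean scaling 3 (Dnm1, Sncb and Syn2, background 0.333%). Without WT replicate 3 the calls were Dnm1, Nsf and Sncb (background 0.185%), and without any other single library, or without both libraries rich in muscle RNA, there were 0, with 18 to 29 members at an unadjusted p under 0.05. These were lower, except for 1 higher member each without WT replicate 2, without S156A replicate 1 and without both.

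**Figure D1:**
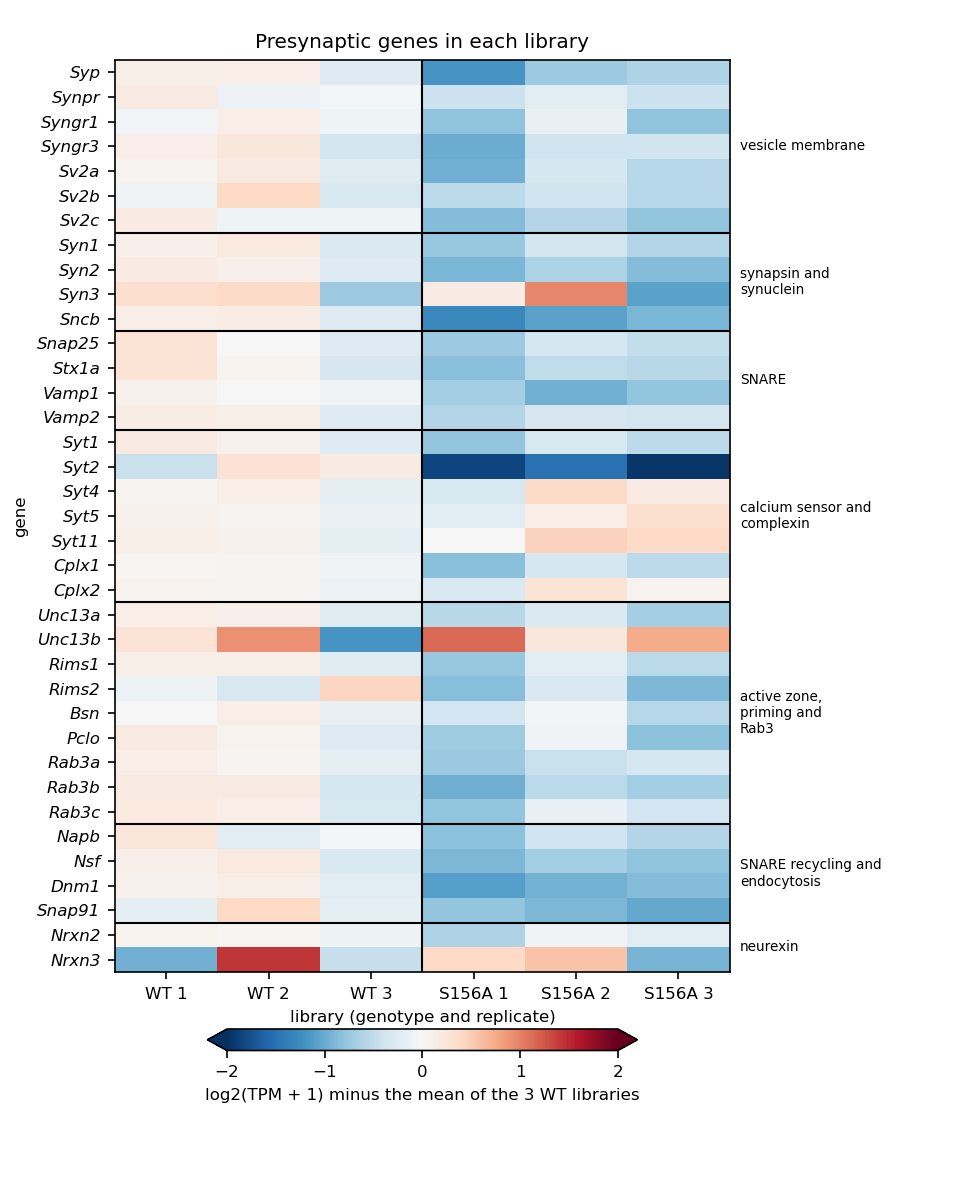
Level of each of the 37 presynaptic genes (rows, grouped by role) in each of the 6 libraries (columns), as log2(TPM + 1) minus the mean of the 3 WT libraries; blue is lower and red higher. The S156A columns are blue in most rows, S156A replicate 1 most often the darkest, and the rows of Syt4, Syt5, Syt11, Cplx2, Unc13b, Syn3 and Nrxn3 are not.

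The 37 transcripts together made up 4351, 4360 and 3436 TPM in WT replicates 1 to 3 and 2443, 3211 and 2999 TPM in S156A replicates 1 to 3. The sums did not overlap between genotypes. Within each genotype the library rich in muscle RNA was the lowest: WT replicate 3 held the lowest WT value of 31 members, and S156A replicate 1 the lowest S156A value of 25. The part of muscle RNA in the differences between libraries was not tested. The median of the members was -0.54 with both of these libraries and -0.54 without them. WT replicate 2, with 1099.95 TPM of muscle genes, was kept in both fits. In whole-brain RNA, fewer nerve cells and less RNA per cell cannot be told apart. General nerve cell markers, such as the tubulin gene Tubb3 and the growth cone gene Gap43, were measured beside the members. Of 16 such genes 12 were negative (background 38.3%), and 8 had an unadjusted p under 0.05, all lower (background 5.5%). Their median was -0.40, with summed TPM between 6899 and 9252 in WT and between 5202 and 6859 in S156A. Tubb3 stood at 2567, 2394 and 1829 TPM in the WT pools against 1368, 1944 and 1895 in the S156A pools, whereas Dcx, a marker of young migrating neurons, was at 283, 232 and 283 TPM and 277, 344 and 397 TPM. None of these markers was at 0 in all libraries, and their part in the presynaptic values was not tested.

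**Figure D2:**
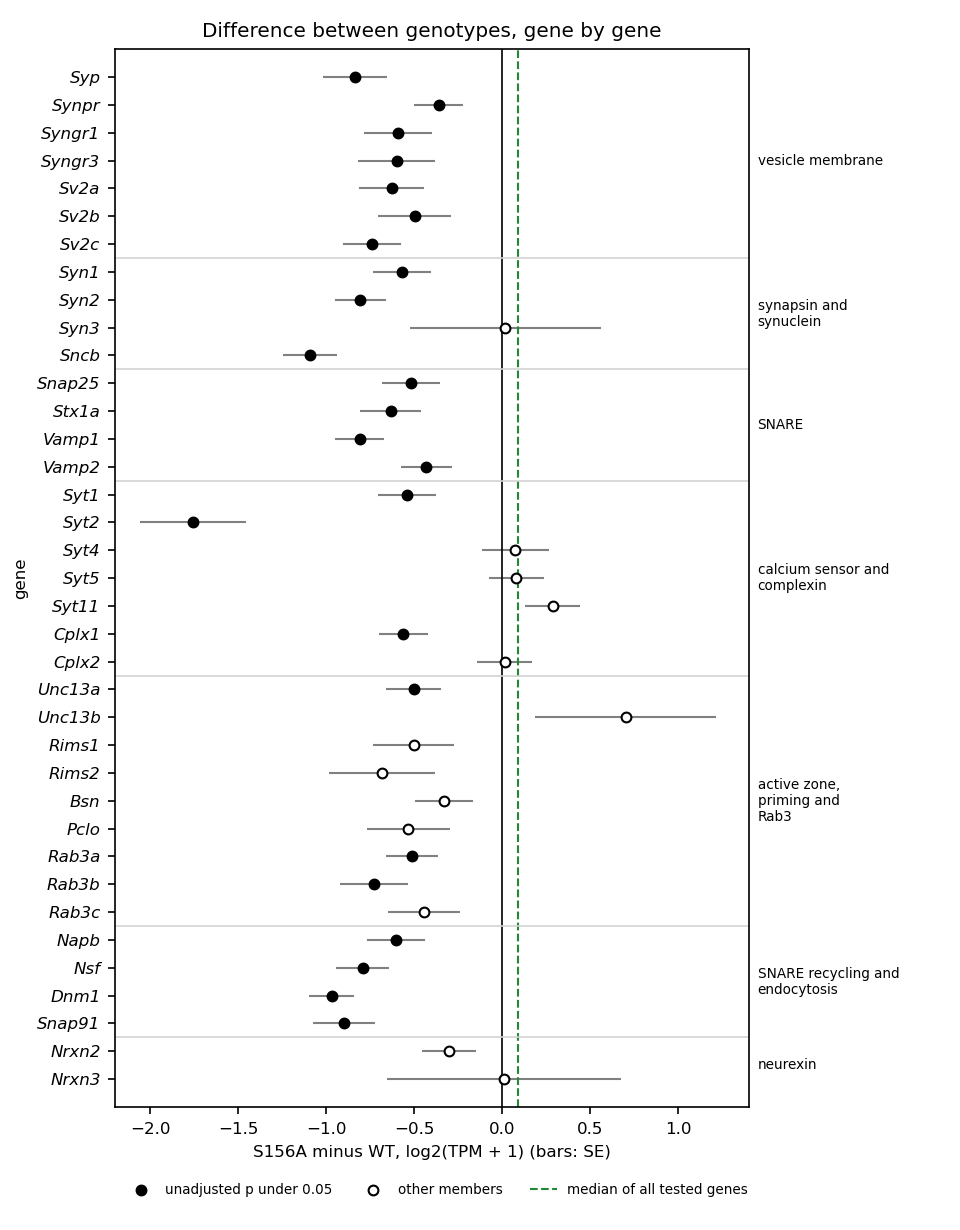
Difference between genotypes for each member (points, S156A minus WT on the log2(TPM + 1) scale, with SE bars, 3 libraries a group); filled points have an unadjusted p under 0.05, and the dashed line is the median of all tested genes at 0.09. The 24 filled points lie between -1.76 and -0.36, and the open points lie on both sides of 0.

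Among the proteins that span the vesicle membrane, all 7 genes were lower in S156A at an unadjusted p under 0.05 in TPM (background 5.5%). Synaptophysin, Syp, the classic marker of synaptic vesicles, stood at 365, 369 and 279.5 TPM in the WT pools against 148, 203 and 218 in the S156A pools. The group means were 338 ± 50.6 and 189.8 ± 36.9 TPM (SD, n = 3 each), and the log2 difference was -0.84 (SE 0.18, limma adjusted p = 0.13). Every S156A library lay below every WT library, with S156A replicate 1 the lowest. Synaptoporin, Synpr, the synaptophysin relative of restricted neuron classes, stood at 31.0, 25.5 and 26.8 TPM in the WT pools against 20.2, 23.6 and 20.3 in the S156A pools, or -0.36 in log2 terms (SE 0.14, limma adjusted p = 0.32). This was the smallest difference among the 24. In coverage (mean read depth per base, rescaled to the same total in each library) it was -0.22 and the groups overlapped. The unadjusted p of Synpr was under 0.05 in 12 of 19 alternatives.

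Synaptogyrins are tetraspan vesicle proteins related to synaptophysin. Syngr1 stood at 84.4, 96.6 and 82.3 TPM in the WT pools against 49.5, 78.5 and 49.5 in the S156A pools, with S156A replicate 2 close to the WT range. Syngr3 stood at 158, 168 and 111 TPM in the WT pools against 71.2, 108 and 108 in the S156A pools, the upper S156A values lying just under WT replicate 3. The log2 differences were -0.59 and -0.60 (SE 0.19 and 0.22).

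The SV2 proteins are vesicle glycoproteins that tune release and bind synaptotagmin. Sv2a, the form found in nearly all neurons, stood at 153, 166 and 124 TPM in the WT pools against 74.9, 115 and 98.3 in the S156A pools. Sv2b, most abundant in forebrain, stood at 17.02, 24.0 and 14.2 TPM in the WT pools against 12.2, 13.4 and 11.8 in the S156A pools. Sv2c, of basal ganglia and brainstem, stood at 19.8, 16.4 and 16.4 TPM in the WT pools against 9.17, 11.3 and 9.74 in the S156A pools. All 3 were lower, with log2 differences of -0.63, -0.50 and -0.74 (SE 0.18, 0.21 and 0.16, limma adjusted p = 0.22, 0.35 and 0.14). The value of Sv2b rested most on WT replicate 2, without which it was -0.30, and its unadjusted p was under 0.05 in 10 of 19 alternatives. The ratios among them did not separate the genotypes: the log2 ratio of Sv2b to Sv2a differed by 0.13 and that of Sv2c to Sv2a by -0.11 (exact permutation p = 0.5 and 0.7, two-sided, 3 against 3 libraries).

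Synapsins coat the vesicle and hold the reserve pool in place. Syn1 stood at 176, 189 and 134 TPM in the WT pools against 96.9, 127 and 109 in the S156A pools. Syn2 stood at 100.5, 96.3 and 75.3 TPM in the WT pools against 47.1, 57.4 and 49.1 in the S156A pools. The log2 differences were -0.57 (SE 0.16, limma adjusted p = 0.22) and -0.81 (SE 0.15, limma adjusted p = 0.093), and neither gene overlapped between groups. Syn3, the synapsin already present in young neurons before synapses form, ran from 4.57 to 11.1 TPM across the WT pools and from 3.40 to 16.9 across the S156A pools, or 0.02 in log2 terms (SE 0.54). Its sign turned under 8 of 19 alternatives, for example to -0.35 without WT replicate 3 and -0.42 without both libraries rich in muscle RNA. Syn3 lies over Timp3 on the opposite strand, as Syn2 does over Timp4 and Syn1 over Timp1 and Araf, and the sources used here do not say whether the counting kept strands apart.

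Beta-synuclein, Sncb, a protein of the nerve terminal, had the largest difference of any member above 10 TPM. It lies on chromosome 13 (ENSMUSG00000034891.14, minus strand, 54906673 to 54914408 in the files' coordinates). Its level was 160.0, 163 and 122 TPM in WT and 59.7, 69.3 and 77.4 TPM in S156A, and the highest S156A library did not reach the lowest WT library. The WT mean was 148 ± 22.6 TPM and the S156A mean 68.8 ± 8.85 TPM (SD, n = 3 each), 46.4% of WT, or -1.09 in log2 terms (SE 0.15, limma adjusted p = 0.062). Over the 19 alternatives it ran from -1.23 to -0.997.

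The Syn1 promoter is widely used to drive transgenes in neurons, and its window is shown because Syn1 and Syn2 are among the members that were lower together. The window holds 250 bases before and 50 after the start of transcription (RefSeq, GRCm38.p6, chrX:20920869-20921168, minus strand). It is written 5′ to 3′, with capitals for the left site of the RE1 element (TTCAGCACC) bound by the repressor REST and for the cAMP response element (TGACGTCA).
Syn1: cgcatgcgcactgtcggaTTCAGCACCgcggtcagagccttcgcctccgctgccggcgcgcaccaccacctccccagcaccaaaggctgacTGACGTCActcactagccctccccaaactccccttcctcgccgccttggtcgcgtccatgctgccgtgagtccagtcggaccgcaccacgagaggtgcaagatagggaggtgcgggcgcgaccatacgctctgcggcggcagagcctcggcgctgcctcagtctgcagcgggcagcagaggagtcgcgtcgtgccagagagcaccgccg
Both motifs and the longer core of RE1 were searched on both strands. The core and the left site share letters, so their matches can overlap. Of 32851 promoter windows of this length, 0.371% held the left site, 0.0944% the core and 1.79% the cAMP element. Among 39 windows of 29 members, the left site was found in Syn1 and Unc13a, the core in Syt2 and the cAMP element in Syn1. These are matches of letters and not measured binding. Members with no entry are Nrxn2, Rims2, Snap25, Syn3, Syngr3, Syt4, Syt5 and Vamp2.

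All 4 genes of the SNARE proteins themselves were lower in S156A at an unadjusted p under 0.05. Snap25 stood at 227, 187 and 157 TPM in the WT pools against 113, 149 and 134 in the S156A pools. Stx1a, syntaxin-1A, stood at 155, 134 and 102 TPM in the WT pools against 71.7, 89.9 and 86.9 in the S156A pools. Their log2 differences were -0.52 and -0.63 (SE 0.17 each, limma adjusted p = 0.26 and 0.20), and the groups did not overlap although WT replicate 3 came close to the highest S156A library.

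Vamp2, the main synaptobrevin of the brain, stood at 429.7, 419.9 and 326 TPM in the WT pools against 259, 308 and 299.9 in the S156A pools. Vamp1, the synaptobrevin that rises late and serves brainstem, spinal and motor neurons, stood at 27.3, 25.5 and 24.3 TPM in the WT pools against 15.6, 12.7 and 14.5 in the S156A pools. Neither gene overlapped between genotypes, and the log2 difference of Vamp1, -0.81 (SE 0.14, limma adjusted p = 0.081), stood beside the -0.43 (SE 0.14, limma adjusted p = 0.27) of Vamp2. The ratio of the pair, however, overlapped between genotypes, with a log2 difference of -0.38 (exact permutation p = 0.2), and in coverage it was -0.10. Vamp3, the synaptobrevin of other membranes in most cell types, stood at 37.4, 40.1 and 49.0 TPM in the WT pools against 52.9, 51.1 and 55.1 in the S156A pools. Its direction was thus the opposite of Vamp2, at 0.33 in log2 terms (SE 0.13, limma adjusted p = 0.33). Every S156A library lay above every WT library (background 13.7%). The log2 ratio of Vamp2 to Vamp3 was 3.49, 3.36 and 2.71 in WT and 2.27, 2.57 and 2.42 in S156A.

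The calcium sensors and complexins were divided: 3 of 7 genes were lower at an unadjusted p under 0.05 and 4 had log2 differences above 0, for a median of 0.01. Syt1, the main fast sensor of forebrain, stood at 144, 135 and 106 TPM in the WT pools against 73.6, 102 and 88.0 in the S156A pools, or -0.54 in log2 terms (SE 0.17, limma adjusted p = 0.24). Complexin-1, Cplx1, stood at 116, 119 and 108 TPM in the WT pools against 63.9, 89.95 and 79.5 in the S156A pools, or -0.56 in log2 terms (SE 0.14, limma adjusted p = 0.18). Both were lower in every S156A library than in any WT library.

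Syt2, the fast sensor of brainstem, spinal and cerebellar synapses, had the largest log2 difference of all members and the lowest mean level over the 6 libraries. It lies on chromosome 1 (ENSMUSG00000026452.16, plus strand, 134574415 to 134690331 in the files' coordinates) and stood at 3.09, 5.83 and 5.27 TPM in the WT pools against 0.564, 0.996 and 0.457 in the S156A pools. The log2 difference was -1.76 (SE 0.30, limma adjusted p = 0.081). At levels this near the pseudocount of 1 the size depends on the scale: it was -2.66 with a pseudocount of 0.1, -0.77 with 5, and -0.84 in coverage, where the groups also did not overlap. Syt2 overlaps Ppp1r12b on the opposite strand, a gene with a mean of 28.4 TPM. Markers of hindbrain and spinal cord, chiefly Hox genes, were also lower on average. Of 14 tested, 13 were negative (background 38.3%), the median was -0.92 and 2 were called (background 0.0741%). The summed TPM of the list was 164, 134 and 146 in WT replicates 1 to 3 and 91.8, 68.6 and 68.1 in S156A replicates 1 to 3. WT replicate 1 was thus the highest WT library for this list and the lowest for Syt2. The part of regional makeup in the Syt2 value was not tested. The promoter window of Syt2 is shown because it alone, among the 29 members with a window, held the core of RE1. The core is in capitals (RefSeq, GRCm38.p6, chr1:134646362-134646661, plus strand).
Syt2: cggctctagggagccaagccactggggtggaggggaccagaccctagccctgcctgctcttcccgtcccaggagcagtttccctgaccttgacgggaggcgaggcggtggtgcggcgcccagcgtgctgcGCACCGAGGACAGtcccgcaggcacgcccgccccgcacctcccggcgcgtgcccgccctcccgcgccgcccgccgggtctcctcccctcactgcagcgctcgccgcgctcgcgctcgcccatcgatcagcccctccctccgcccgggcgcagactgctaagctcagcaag

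The remaining synaptotagmins and complexin-2 did not share the lower values. Syt4, which rises early in development and sits on dense core vesicles, stood at 161, 171 and 138 TPM in the WT pools against 124, 203 and 174 in the S156A pools. Syt11, its close relative that does not bind calcium, stood at 169, 166 and 135 TPM in the WT pools against 155, 216 and 206 in the S156A pools. Cplx2, the complexin expressed from early stages, stood at 119.6, 118 and 104 TPM in the WT pools against 92.3, 137 and 119 in the S156A pools. In each of these S156A replicate 1 was low and the groups overlapped, with log2 differences of 0.07, 0.28 and 0.01 (SE 0.19, 0.16 and 0.16). Syt5, a sensor of dense core and synaptic vesicles, ran from 75.1 to 88.2 TPM across the WT pools and from 71.1 to 103.8 across the S156A pools, or 0.08 in log2 terms (SE 0.16). The signs of Syt4, Syt5 and Cplx2 turned when single libraries were left out and under trimmed mean scaling, so they have no settled direction. Without both libraries rich in muscle RNA they were at 0.18, 0.16 and 0.11, whereas Syt11 stayed between 0.18 and 0.43 over 19 alternatives (limma adjusted p = 0.47 in the full fit). Ranks among the 37 by mean TPM differed between genotypes. Syt11 was 8 in WT and 3 in S156A, Syt4 was 9 and 5, and Sncb was 10 and 18.

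The active zone and priming genes were lower in 8 of 9 cases, with only 3 at an unadjusted p under 0.05. Unc13a, Munc13-1, the factor that opens syntaxin to prime vesicles, stood at 55.2, 53.8 and 42.4 TPM in the WT pools against 33.9, 40.9 and 31.0 in the S156A pools, or -0.50 in log2 terms (SE 0.16). Rab3a, the vesicle GTPase of docking and the most abundant member, stood at 473, 444 and 376 TPM in the WT pools against 255, 314 and 337 in the S156A pools, or -0.52 in log2 terms (SE 0.15). Rab3b, a rarer paralog, stood at 38.6, 38.1 and 26.3 TPM in the WT pools against 16.7, 23.0 and 20.8 in the S156A pools, or -0.73 in log2 terms (SE 0.20). None of the 3 overlapped between groups (limma adjusted p = 0.25, 0.22 and 0.20).

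The large scaffolds were lower on average, but their groups overlapped. Rims1 ran from 6.54 to 8.66 TPM across the WT pools and from 4.24 to 6.71 across the S156A pools, and Rims2 from 3.19 to 5.998 and from 1.80 to 3.23 TPM. Bsn ran from 29.2 to 35.6 TPM across the WT pools and from 21.5 to 31.2 across the S156A pools, and Pclo from 17.4 to 23.7 and from 11.4 to 19.9 TPM. Rab3c ran from 62.2 to 89.4 TPM across the WT pools and from 44.7 to 70.1 across the S156A pools. In each of these 5 genes the overlap came from S156A replicate 2, the highest of its group in 29 of the 37 members. Their log2 differences lay between -0.68 and -0.33, with limma adjusted p between 0.37 and 0.42. Rims2, at the lower end, was at -0.39 without both libraries rich in muscle RNA and at -0.19 in coverage. Rab3c was at -0.27 without S156A replicate 1, and Bsn at -0.21 without S156A replicate 3. Unc13b, Munc13-2, was the exception, from 5.75 to 27.9 TPM across the WT pools and from 16.995 to 32.5 across the S156A pools, or 0.70 in log2 terms (SE 0.51), which was -0.10 without both libraries rich in muscle RNA and 0.06 in coverage.

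Among the listed members, genes that recycle SNAREs and retrieve membrane had the lowest median of the roles. It was -0.85 over 4 genes, each lower at an unadjusted p under 0.05. This ranking holds for these 4 genes only. Further genes of these steps on the wider list ran from -1.11 for Dnm3 to 0.35 for Picalm. Between these, Amph and Synj1 were at -0.55 and -0.33, and Napa, Ap2a2 and Sh3gl1 at -0.00470, 0.00439 and 0.10. Dynamin-1, Dnm1, the GTPase that cuts endocytic vesicles free, lies on chromosome 2 (ENSMUSG00000026825.18, minus strand, 32198483 to 32243350 in the files' coordinates). It stood at 200.4, 205 and 164 TPM in the WT pools against 87.1, 97.7 and 103 in the S156A pools. Its means were 189.7 ± 22.6 and 96.1 ± 8.28 TPM (SD, n = 3 each), the log2 difference was -0.97 (SE 0.13, limma adjusted p = 0.052), and over 19 alternatives it ran from -1.07 to -0.89. A wide gap separated the genotypes, and the library rich in muscle RNA was the lowest in each. Dnm1 overlaps Ciz1 on the opposite strand, whose log2 difference was -0.03.

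Nsf, the ATPase that takes SNARE complexes apart, stood at 136, 144 and 102 TPM in the WT pools against 67.5, 78.3 and 71.6 in the S156A pools, or -0.79 in log2 terms (SE 0.15, limma adjusted p = 0.096). Its adaptor Napb, beta-SNAP, stood at 75.5, 54.9 and 62.1 TPM in the WT pools against 35.5, 48.1 and 41.9 in the S156A pools, or -0.60 in log2 terms (SE 0.16, limma adjusted p = 0.20). Snap91, AP180, the neuronal clathrin adaptor, stood at 92.9, 139.8 and 92.6 TPM in the WT pools against 61.3, 56.8 and 51.9 in the S156A pools, or -0.90 in log2 terms (SE 0.18, limma adjusted p = 0.11). In none of these did a S156A library reach the WT range, and the WT value of Snap91 was highest in replicate 2.

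Neurexins are the presynaptic adhesion receptors that meet neuroligins across the cleft. Nrxn2 stood at 185, 182 and 166 TPM in the WT pools against 115, 168 and 153 in the S156A pools, or -0.30 in log2 terms (SE 0.15, limma adjusted p = 0.43). S156A replicate 2 lay inside the WT range. Without both libraries rich in muscle RNA the difference was -0.19, without S156A replicate 1 alone it was -0.15, and in coverage the difference was -0.54 and the groups did not overlap. Nrxn3 ran from 4.10 to 25.7 TPM across the WT pools and from 4.21 to 13.7 across the S156A pools, or 0.01 in log2 terms (SE 0.66), and its sign turned under 11 of 19 alternatives, to -0.42 without both libraries rich in muscle RNA.

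Some of the members without a clear direction also had the widest spread in TPM. For 5 members (Syt2, Nrxn3, Unc13b, Syn3 and Rims2) the highest of the 6 libraries was over 3 times the lowest, and for the other 32 the spread was at most 2.73-fold. In coverage the spread shrank from 6.27 to 1.94-fold for Nrxn3, from 5.65 to 1.41-fold for Unc13b, from 4.98 to 2.15-fold for Syn3, from 3.32 to 1.54-fold for Rims2 and from 12.7 to 3.24-fold for Syt2. Both columns were deposited for the same libraries, and the cause of the gap between them was not tested. The TPM differences of these 5 genes are less certain than those of the other members.

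**Figure D3:**
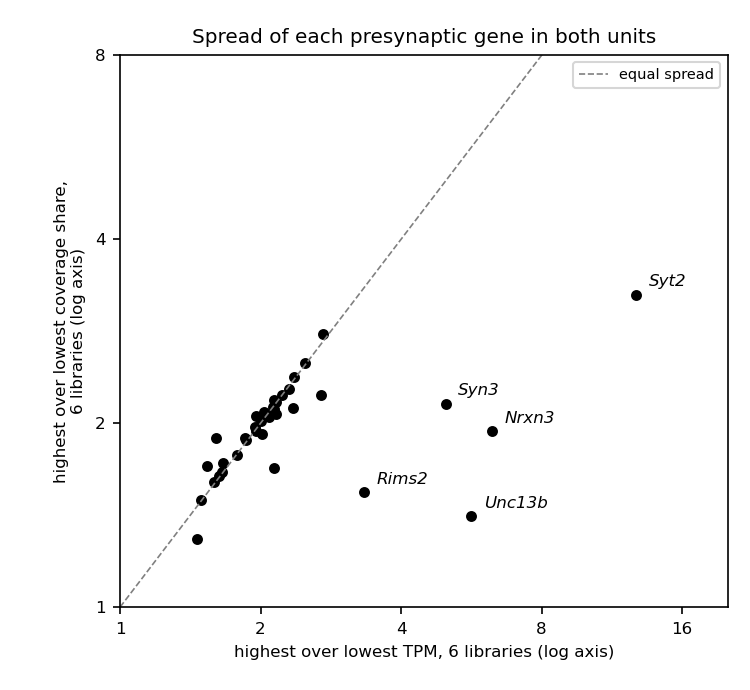
Highest over lowest value across the 6 libraries for each of the 37 genes, in TPM (horizontal, log axis) and in coverage rescaled to the same total in each library (vertical, log axis), with a dashed line of equal spread. Most genes lie on or near the line, and Syt2, Nrxn3, Unc13b, Syn3 and Rims2 lie well below it.

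Paralogs were then compared within each library, as the log2 ratio of TPM + 1 of one gene to that of the other, for 22 pairs. With 3 libraries a group, the two-sided exact permutation test cannot go below 0.1, so no pair could pass a threshold of 0.05. The smallest exact permutation p was reached by 9 pairs (adjusted over the 22 pairs, p = 0.24), and in all 9 the ratio was lower in S156A. Of 6 pairs of a late over an early paralog all 6 were lower on average and 3 did not overlap in TPM. No share over other gene pairs was computed. These pairs are not independent, as Syn3 is the early gene for both Syn1 and Syn2. Syt1 counts as early beside Syt2 and as late beside Syt4. Syt2 and Vamp1 are also genes of brainstem and spinal neurons, so in their pairs late over early cannot be told apart from region. The late gene of each pair was itself lower at an unadjusted limma p under 0.05. Cplx1 to Cplx2 was the tightest: -0.04, 0.01 and 0.05 in WT against -0.52, -0.60 and -0.57 in S156A, a difference of -0.57 that stayed between -0.60 and -0.55 over 12 alternatives. Cplx1 was thus at 1.01 of Cplx2 in WT and at 0.675 of it in S156A (geometric means of TPM + 1). Syt1 to Syt4 was -0.16, -0.33 and -0.38 in WT against -0.75, -0.99 and -0.98 in S156A, a difference of -0.62 (range -0.74 to -0.55). Syt2 to Syt1 differed by -1.21, a value that was -0.25 at its smallest and -2.11 at its largest over 12 alternatives. In coverage this ratio differed by -0.29 and overlapped between genotypes. The ratios of Syn1 and Syn2 to Syn3 differed by -0.59 and -0.82 and overlapped, with Syn3 low in WT replicate 3 and S156A replicate 3. Without both libraries rich in muscle RNA they differed by -0.21 and -0.46.

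**Figure D4:**
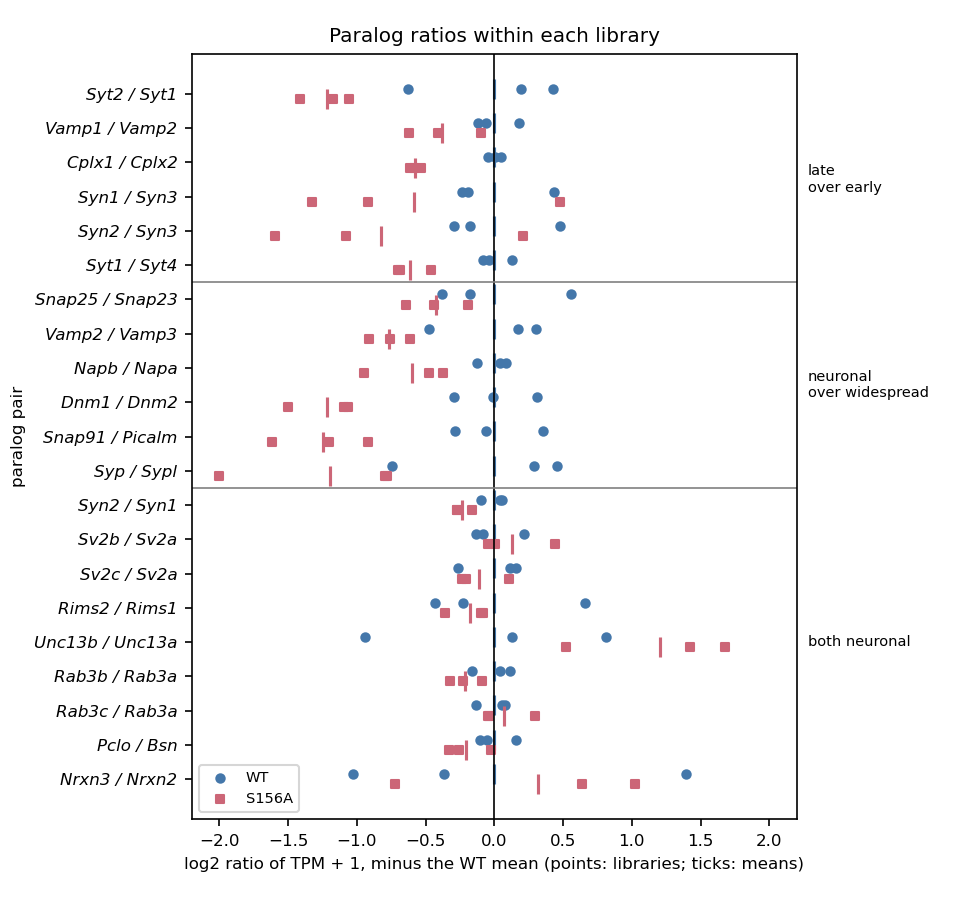
Log2 ratio of TPM + 1 for 21 paralog pairs (rows, in 3 classes) in each library, minus the WT mean of the pair; circles are WT, squares S156A and ticks group means. In 5 of 6 pairs of a neuronal over a widespread paralog and in 3 of 6 pairs of a late over an early one the squares lie left of all circles, against 1 of 9 pairs in which both genes are members.

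Of 6 pairs that set a neuronal gene against its widespread relative, all 6 were lower on average and 5 did not overlap. The neuronal gene of each pair was itself lower at an unadjusted limma p under 0.05. These ratios are therefore not evidence apart from the values of the members. Snap91 against Picalm, the clathrin adaptor of most cells, differed by -1.25, from 0.13, 0.77 and 0.36 in WT to -0.49, -1.20 and -0.78 in S156A. Over 12 alternatives this ran from -1.44 without both libraries rich in muscle RNA to -0.88 in coverage. Picalm stood at 84.5, 81.3 and 71.7 TPM in the WT pools against 86.7, 131 and 89.9 in the S156A pools. Dnm1 against Dnm2, the dynamin of all cells, differed by -1.22, and Dnm2 stood at 39.6, 32.2 and 39.3 TPM in the WT pools against 48.7, 41.1 and 42.6 in the S156A pools. In TPM every S156A library held more Picalm and more Dnm2 than any WT library (background 13.7%), the reverse of Snap91 and Dnm1. Neither Picalm nor Dnm2 was called (limma adjusted p = 0.42 and 0.44). In coverage the groups of both overlapped, and their log2 differences were 0.20 and 0.15 in place of 0.35 and 0.25.

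Syp against Sypl, a synaptophysin relative of other tissues, differed by -1.19, with Sypl at 20.3, 23.1 and 36.5 TPM in WT and 46.7, 26.9 and 29.3 TPM in S156A. This ratio differed by -0.79 without S156A replicate 1, where Sypl was highest, and by -1.57 without WT replicate 3. Vamp2 against Vamp3 differed by -0.76. Napb against Napa, the alpha-SNAP of all cells, differed by -0.60, and Napa was level at 121, 102 and 104 TPM in WT and 118, 107 and 100.5 TPM in S156A. Without both libraries rich in muscle RNA this ratio was -0.41 and the others of the 5 lay between -1.44 and -0.93. Snap25 against Snap23 differed by -0.43 and overlapped, and over 12 alternatives this ran from -0.83 in coverage to -0.15 without WT replicate 1.

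Among 10 pairs of 2 neuronal paralogs only Syn2 to Syn1 did not overlap, from -0.80, -0.96 and -0.82 in WT to -1.03, -1.13 and -1.14 in S156A, a difference of -0.24. Rims2 to Rims1, Rab3b and Rab3c to Rab3a, and Pclo to Bsn differed by -0.18, -0.21, 0.07 and -0.20. Nrxn3 to Nrxn2 and Unc13b to Unc13a differed by 0.31 and 1.21, with the wide spread of Nrxn3 and Unc13b described above, and all of these overlapped. Without both libraries rich in muscle RNA the ratio of Nrxn3 to Nrxn2 differed by -0.22 and that of Unc13b to Unc13a by 0.50. Whether the classes of pairs differ from each other was not tested.

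The wider release machinery was also lower on average. Of 76 further genes of docking, fusion and retrieval, 75 were found and 73 had a mean of at least 1 TPM. Their median log2 difference was -0.28, and 56 were negative, against 38.3% of all genes tested. By limma 0 were called (background for calls in the lower direction 0.0741%), and 9 were called under library weights (0.963%). At an unadjusted p under 0.05, 22 were lower and 1 higher (background 5.5% lower and 8.41% higher). For 24 genes every S156A library lay below every WT library, and for 4 every one lay above (background 7.05% and 13.7%). The 8 with the smallest p were all lower. The atypical synaptotagmin Syt13 had the largest difference of these, -1.31 (SE 0.18, limma adjusted p = 0.060), with 96.6, 87.7 and 65.0 TPM in the WT pools against 27.4, 35.4 and 35.2 in the S156A pools. Apba1, a Munc18 partner, averaged 54.8 ± 5.66 TPM over the WT pools and 29.5 ± 1.88 over the S156A pools (SD, n = 3 each), or -0.87 in log2 terms. Doc2a and Doc2b, calcium sensors of spontaneous release, differed by -1.08 and -0.83, Rims3 by -0.93, Syt3 by -0.89 and the vesicle proton pump subunit Atp6v1g2 by -0.81 (limma adjusted p between 0.062 and 0.12 for Apba1 and these 5 genes). The 1 gene higher at an unadjusted p under 0.05 was Vamp3, with 0.33 (SE 0.13), named here after its value was seen.

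**Figure D5:**
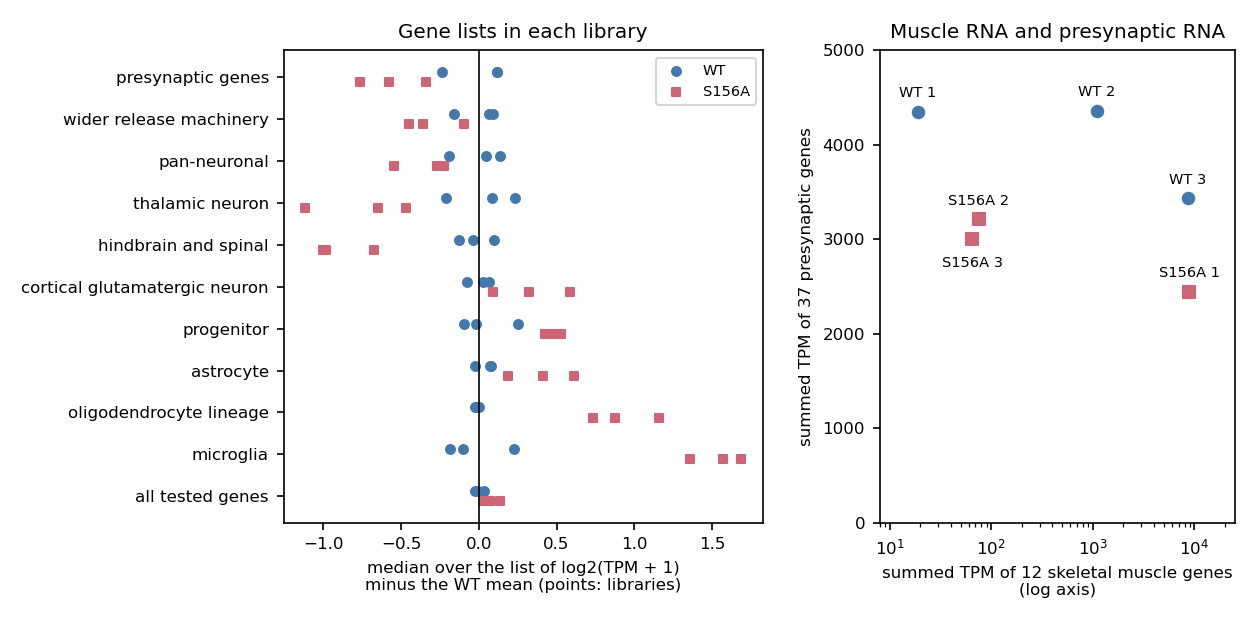
Left, median over each gene list of log2(TPM + 1) minus the WT mean, for each library (circles WT, squares S156A). Right, summed TPM of 12 skeletal muscle genes (log axis) against summed TPM of the 37 presynaptic genes, by library. All S156A libraries lie below all WT libraries. WT replicate 3 and S156A replicate 1 lie furthest right, and WT replicate 2 lies between them and the others.

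Markers of brain regions and other cell types differed between genotypes beside the presynaptic genes. Over all genes tested, 38.3% had a negative log2 difference. Of 10 thalamic markers 9 were negative (median -0.78, summed TPM 290.2 to 452 in WT and 172 to 266 in S156A). Of 12 markers of cortical glutamatergic neurons 3 were negative (median 0.34, summed TPM 569 to 638 in WT and 661 to 1027 in S156A). All 13 microglial and all 10 progenitor markers were positive (medians 1.48 and 0.41), and the medians of 10 astrocyte and 11 oligodendrocyte lineage markers were 0.45 and 0.83. Of the markers on these lists only Egr2 of the hindbrain list had a mean below 1 TPM. The part of regional or cell type makeup in the presynaptic values was not tested.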

How the data were processed

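RNA from E18.5 whole brains was sequenced as 3 WT and 3 S156A libraries. The tools listed in the submitters' processing notes, without roles, are StringTie 2.1.5, HISAT2 2.2.1 and Trim Galore 0.6.6, and the build listed is hg38, although the deposited gene identifiers are mouse. Of the 37 members, 0 start within 1000 bases of their GRCm38.p6 start, so the tables use another mouse build, which the sources used here do not name. The TPM, FPKM and coverage columns are the authors' values, per the file headers. Coverage is a signal of mean read depth per base. The deposited TPM column lists annotated rows and assembled loci, and each kind adds up to its own total of about the size that TPM is scaled to, so the whole column exceeds it. Only annotated rows were used here. They make up 93.1 to 95.8% of that scale, so a printed TPM is a share of the annotated part and differs in scale by that much between libraries. Rows that share an identifier were summed (6 identifiers). No read counts were used, and library depth was estimated from coverage and FPKM.

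The 18893 genes with a mean of at least 1 TPM were fitted as log2(TPM + 1), which understates the change of low genes, with limma 3.58.1 in R 4.3.3 (empirical Bayes with trend, two-sided, Benjamini-Hochberg adjustment over all tested genes). SE and adjusted p come from this fit. The code was tested on simulated data. Paralog ratios were compared by an exact permutation test. Alternatives changed the unit, pseudocount, filter, scaling, variance model, library weights and replicate block, and left out libraries. Sypl1 was matched through its identifier as Sypl. Members, lists and pairs were chosen with earlier results of these data known. The motifs, and coverage as an alternative, were chosen after seeing the data. All members are named. Values in every library are given for members with an unadjusted p under 0.05, the 6 with the highest mean TPM and both genes of pairs whose ratios did not overlap, and from the wider list the 8 genes with the smallest p are named, except where a result is not reported here. The same holds for 1 of the 22 pairs.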

Additional observations from a re-analysis of the deposited data

How the results depend on the processing

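Over 19 alternatives the median of the presynaptic genes stayed between -0.67 and -0.45, and 18 to 30 members had an unadjusted p under 0.05. All of these were lower, except for 1 higher member each without WT replicate 2, without S156A replicate 1 and without both libraries rich in muscle RNA. Members called were 1 (Dnm1) with FPKM, with a mean TPM of at least 5, without mitochondrial, haemoglobin and muscle genes, and with coverage, 2 with quantile normalization, 3 with trimmed mean scaling and 7 with library weights. Leaving out single libraries gave 0 to 3. The wider list had 2 called with FPKM, 2 with quantile normalization, 3 with trimmed mean scaling and 9 with library weights. Background shares for calls in the lower direction were 0.203%, 0.191%, 0.333% and 0.963%. Fits that left out a single library called 0 to 2, with calls only without WT replicate 3 (background 0.185%). Deviations of same-numbered libraries from their group means correlated at r = -0.55, 0.19 and -0.41 across genes. The labels do not say whether the numbers pair the libraries, and with 3 libraries a group such correlations cannot decide it. With a replicate block 0 members were called, the smallest adjusted p by limma was 0.30, and 24 had an unadjusted p under 0.05, while over all genes the 30 calls became 0.

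The sign turned in 6 members and 5 pairs, and the cause was not tested. For Cplx2 the difference was -0.00811 with FPKM and -0.0779 with trimmed mean scaling, for Syt4 -0.0164 and for Syt5 -0.0103 with trimmed mean scaling, and for Unc13b -0.10 without WT replicate 3 and S156A replicate 1. For Nrxn3 it was -0.034 with FPKM, -0.0286 with a pseudocount of 5, -0.0715 with trimmed mean scaling, -0.078 with quantile normalization, -0.73 with library weights, -0.42 without both libraries and -0.24 with coverage. For Syn3 it was -0.000634 with a pseudocount of 0.1, -0.0643 with trimmed mean scaling, -0.0615 with quantile normalization, -0.55 with library weights and -0.42 without both libraries. With single libraries left out, Cplx2 ran from -0.12 to 0.17, Syt4 from -0.0803 to 0.27, Syt5 from -0.0435 to 0.23, Unc13b from 0.11 to 1.16, Nrxn3 from -0.47 to 0.72 and Syn3 from -0.45 to 0.56. Without both libraries the ratio of Sv2b to Sv2a was -0.0633, of Rims2 to Rims1 0.10 and of Nrxn3 to Nrxn2 -0.22. The ratio of Sv2c to Sv2a was 0.0289 with a pseudocount of 5, and that of Rims2 to Rims1 was 0.34 with coverage. With single libraries left out, the ratio of Sv2b to Sv2a ran from -0.0231 to 0.239, of Rims2 to Rims1 from -0.396 to 0.15, of Rab3c to Rab3a from -0.0409 to 0.129 and of Nrxn3 to Nrxn2 from -0.199 to 1.01.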
